A study of Rattus norvegicus with 48 samples.

Results

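The miR-106b-25 cluster is a group of microRNAs (miRNAs) that lie together in an intron of Mcm7, a gene for a subunit of the helicase that unwinds DNA at replication. Its members were taken by name from the table of each library, namely rno-miR-106b-5p, rno-miR-106b-3p, rno-miR-93-5p and rno-miR-25-3p, which are 4 of the 763 rat miRNAs listed and of the 629 with a read in any library. A miRNA is a short RNA that loads into an Argonaute protein and lowers the output of mRNAs that pair with its seed, the bases near its 5′ end. Each hairpin precursor can give an arm from its 5′ side (5p) and an arm from its 3′ side (3p). Mcm7 is a target of E2F transcription factors, and the miRNAs of its intron are known for acting on cell cycle inhibitors and on TGF-beta and BMP signaling. The seed of miR-106b-5p and miR-93-5p recurs in the miR-17-92 cluster, a paralog.

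The libraries came from serum and ulna bone of Zucker Diabetic Fatty (ZDF) rats, which lack a working leptin receptor (fa/fa) and develop type 2 diabetes, and of lean wild-type (WT, ZDF +/+) rats. All rats were male and 11 weeks old at the start, ate a high-fat, high-carbohydrate diet and had a femur defect of 3 mm, so the controls carried the injury too, and samples were taken at week 12 of treatment. Serum was sequenced from placebo rats (WT n = 5, ZDF n = 5), rats given parathyroid hormone, PTH, at 75 µg/kg (WT n = 5, ZDF n = 5), rats given an antibody to sclerostin at 25 mg/kg (WT n = 4, ZDF n = 4) and ZDF rats given insulin, raised from 0.5 to 13 IU (n = 4), and ulna from placebo and PTH rats of both genotypes (n = 4 in each of 4 groups). No WT rat received insulin, and the ulna is not the injured bone. The paper credits the antibody, PTH and insulin rats to separate earlier studies, and the placebo rats to the PTH and insulin studies. Its table legend also describes a randomization of the ZDF rats to the treatments. By these credits, source study and treatment cannot be told apart for the antibody. For PTH and insulin they overlap in part, and the labels do not give the study of each placebo rat. Serum libraries held 28015 to 205664 miRNA reads and bone libraries 41627 to 1398702, and the synthetic controls added at extraction had 51220 to 1008421 reads in serum and 2 to 65 in bone. Levels are read counts scaled to a common miRNA total with the trimmed mean of M values (TMM) within a tissue (CPM), and a change was called at a false discovery rate (FDR) under 0.2 in edgeR's quasi-likelihood test, the threshold of the study.

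The mature sequences, from RefSeq (GRCr8), show which members share a seed. Bases 2 to 8 are in capitals.
rno-miR-106b-5p: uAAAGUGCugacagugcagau
rno-miR-93-5p: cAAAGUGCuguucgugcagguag
rno-miR-106b-3p: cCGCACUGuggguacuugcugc
rno-miR-25-3p: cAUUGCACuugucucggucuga
The 4 members carried 3 seeds. Rno-miR-106b-5p and rno-miR-93-5p had the same seed, AAAGUGC, and differed at 5 of the first 21 bases. Rno-miR-25-3p had the seed of miR-92a, and rno-miR-106b-3p had a seed that no other listed miRNA with a sequence carried (686 of the 763 names matched). All 4 lie on the minus strand of chromosome 12 within the span of Mcm7, rno-miR-106b-5p at chr12:22157103-22157123, rno-miR-106b-3p at chr12:22157062-22157083, rno-miR-93-5p at chr12:22156894-22156916 and rno-miR-25-3p at chr12:22156652-22156673, so the 4 arms fit in 472 bases. The next lines give the abundant miRNAs outside the cluster that carry the same seeds and serve as the comparison for them.
rno-miR-17-5p: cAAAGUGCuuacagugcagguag
rno-miR-20a-5p: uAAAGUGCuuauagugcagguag
rno-miR-92a-3p: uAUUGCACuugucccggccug
Rno-miR-92a-3p differed from rno-miR-25-3p at 3 of 21 bases, rno-miR-17-5p from rno-miR-106b-5p at 3 of 21 and from rno-miR-93-5p at 4 of 23. Counted from the first base over the length of the shorter sequence, no listed miRNA with a sequence was within 2 mismatches of a member, while reads were assigned with 1 mismatch allowed. Reads were kept from 17 nt, and a read that covers part of a miRNA can differ less. Whether reads were shared between these miRNAs was not tested.

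The 4 members differed widely in abundance, with miR-25-3p and miR-93-5p far above the miR-106b arms in serum and in bone. In serum, rno-miR-25-3p took 4.18% ± 2.15 of the miRNA reads (SD, n = 32 libraries) and ranked 6 by mean level, and rno-miR-93-5p took 3.03% ± 0.884 and ranked 10. The 2 arms of miR-106b took 0.0287% ± 0.0139 (5p) and 0.0264% ± 0.0203 (3p) and ranked 117 and 123. In bone, rno-miR-25-3p took 0.617% ± 0.186 (SD, n = 16) and rno-miR-93-5p 0.427% ± 0.212, against 0.00581% ± 0.00354 for rno-miR-106b-5p and 0.0215% ± 0.00814 for rno-miR-106b-3p. Ligation and capture differ between miRNAs, so levels of different miRNAs are not amounts of RNA.

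Depth differed as much. The sera had 805 to 10876 reads of rno-miR-25-3p and the bones 290 to 5261, beside 1007 to 6461 and 34 to 4276 of rno-miR-93-5p. Rno-miR-106b-5p had 8 to 94 reads in serum and 3 to 67 in bone, and rno-miR-106b-3p 5 to 99 and 5 to 205. A count of 3 reads has an exact 95% Poisson interval of 0.619 to 8.77 and a count of 100 one of 81.4 to 122, which cover counting error only, so single values of the miR-106b arms are coarse. The levels of the members were weakly related to depth, with Spearman correlations with the miRNA reads of a library from -0.173 to -0.0821 over 32 sera and from -0.374 to 0.0882 over 16 bones.

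The 2 remaining arms, rno-miR-25-5p and rno-miR-93-3p, were as scarce as those of miR-106b in serum. Rno-miR-25-5p averaged 0.0223% ± 0.0109 of the serum reads and rno-miR-93-3p 0.0215% ± 0.0116 (SD, n = 32). In bone they took 0.00689% ± 0.00322 and 0.00176% ± 0.00122 (SD, n = 16), and were at 0 reads in 1 and 2 of the 16 libraries.

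Of the serum groups, insulin-treated ZDF rats had the highest mean level of 3 of the 4 members, rno-miR-25-3p, rno-miR-93-5p and rno-miR-106b-3p. The question of this comparison is which circulating miRNAs move when diabetic rats receive insulin in place of vehicle. Rno-miR-25-3p was at 101652, 48105, 102211 and 90979 CPM in the 4 insulin rats and at 34129, 43710.5, 39237, 38377 and 22951 CPM in the 5 placebo ZDF rats. Rno-miR-93-5p was at 55128, 39510.5, 78440.1 and 55713 CPM against 25892, 35943, 36849, 30028 and 27473 CPM. For both miRNAs every insulin rat lay above every placebo ZDF rat, a separation seen in 6.62% of the 151 miRNAs tested (10 miRNAs). Rno-miR-106b-3p was at 958, 279, 971 and 501 CPM, from 56, 20, 80 and 25 reads, against 166, 173, 198, 204 and 322 CPM, from 9, 15, 25, 15 and 18 reads. The lowest insulin rat lay below the highest placebo rat, and the other 3 lay above all. Rno-miR-106b-5p was at 171, 446, 364 and 320.4 CPM against 222, 323, 221, 380.1 and 197 CPM, and the placebo values lay within the range of the insulin values.

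In the fit over all miRNAs, 3 of the 4 members passed the threshold, all higher under insulin, where 26.5% of the 151 miRNAs tested passed and 11.3% passed as higher. The log2 fold change of rno-miR-106b-3p was 1.66 ± 0.395 (SE; edgeR FDR 0.0342), that of rno-miR-25-3p 1.25 ± 0.278 (edgeR FDR 0.0275) and that of rno-miR-93-5p 0.85 ± 0.246 (edgeR FDR 0.0646). Rno-miR-106b-5p had 0.25 ± 0.353 (edgeR FDR 0.673) and was not called. The median over the members was 1.05, beside -0.10 over all miRNAs tested. In exact two-sided permutation tests of the log2 levels, rno-miR-25-3p and rno-miR-93-5p each gave p = 0.00794, the smallest that 4 against 5 rats allow, and rno-miR-106b-3p p = 0.0159 (0.103, 0.103 and 0.165 after Benjamini-Hochberg adjustment over the 52 tests of members within a tissue).

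Of the 40 miRNAs called under insulin 17 were higher and 23 lower, while scaling to all reads of a library called 4 higher and 29 lower and scaling to the extraction controls 27 higher and 0 lower, with shifts of the median fold change of -0.27 and 0.83. Measured from the median of all miRNAs, rno-miR-25-3p stood at 1.36 in the TMM fit, 1.35 with library totals and 1.21 with the controls, rno-miR-106b-3p at 1.77, 1.76 and 1.73, and rno-miR-93-5p at 0.95, 0.91 and 0.83. Rno-miR-93-5p was not called with library totals (log2 fold change 0.54, edgeR FDR 0.424).

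**Figure D1:**
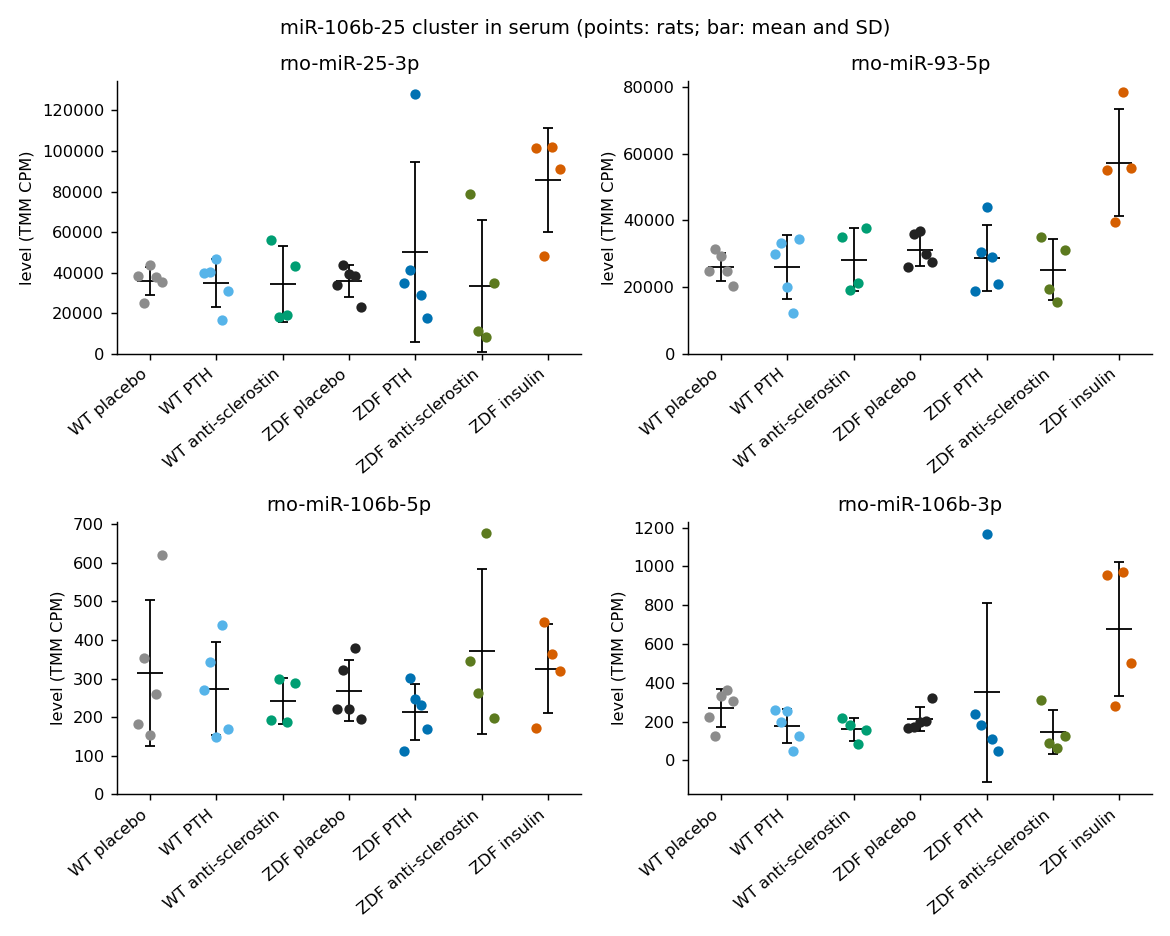
Levels of the 4 members in serum, in TMM-scaled CPM on linear axes, by group; each point is 1 rat and the black bar is the mean with the SD. The 4 insulin rats lie between 48105 and 102211 CPM for rno-miR-25-3p, above all placebo ZDF rats, while for rno-miR-106b-5p the groups overlap.

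The same 3 members were higher in insulin-treated ZDF rats than in placebo WT rats, a comparison that shares the insulin sera with the one above. Rno-miR-25-3p was at 38229, 24954, 43827, 37685 and 35613 CPM in the 5 WT rats and rno-miR-93-5p at 24836, 31303, 29176, 24704 and 20330.2 CPM, all below the 4 insulin rats, a separation seen in 7.79% of 154 miRNAs. On the log2 scale rno-miR-25-3p was higher by 1.24 ± 0.349, and the fold changes were 1.13 ± 0.317 for rno-miR-93-5p and 1.32 ± 0.462 for rno-miR-106b-3p (SE; edgeR FDR 0.0564, 0.0564 and 0.0875), with 19.5% of 154 miRNAs called and 7.79% called as higher. The levels of rno-miR-106b-5p overlapped, at 183, 353, 153, 259.9 and 621 CPM in WT rats. With library totals, which moved the median of all miRNAs by -1.16 and called 0 higher and 121 lower in place of 12 and 18, none of the 3 was called and rno-miR-106b-5p was called lower (edgeR FDR 0.0673). With the extraction controls no member was called (edgeR FDR 0.970 to 0.999).

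Rno-miR-25-3p was also compared with its seed partner within the same library, a value that does not depend on scaling. The log2 ratio of rno-miR-25-3p to rno-miR-92a-3p was -0.39, -0.31, 0.01 and 0.02 in the insulin rats and -1.0, -1.15, -0.87, -1.03 and -1.50 in the placebo ZDF rats. The groups did not overlap, and the mean ratio was higher by 0.94 (exact permutation p = 0.00794, 0.278 after Benjamini-Hochberg adjustment over 105 ratio tests). Rno-miR-92a-3p itself had a log2 fold change of 0.33 ± 0.265 (SE; edgeR FDR 0.446) and took 83074 ± 40605 CPM over the sera (SD, n = 32). The ratio of rno-miR-25-3p to rno-miR-93-5p differed by 0.39 between these groups (exact permutation p = 0.103) and that of rno-miR-93-5p to rno-miR-17-5p by 0.064 (exact permutation p = 0.833), both within the spread of the rats. Against placebo WT rats, the ratio of rno-miR-25-3p to rno-miR-92a-3p in the insulin rats was higher by 0.45, with overlap (exact permutation p = 0.341).

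Of 13 arms of miR-17-92, 6 were tested and 2 rose under insulin, rno-miR-18a-5p (log2 fold change 0.93 ± 0.357, edgeR FDR 0.124) and rno-miR-17-5p (0.67 ± 0.297, edgeR FDR 0.165). The median of the 6 was 0.56, with 0.33 ± 0.265 for rno-miR-92a-3p and 0.39 ± 0.311 for rno-miR-19b-3p at the low end. Rno-miR-20a-5p, with the AAAGUGC seed, had 0.56 ± 0.271 (edgeR FDR 0.205) and rno-miR-19a-3p 0.56 ± 0.358 (edgeR FDR 0.343). Of the 6 arms of miR-106a-363 only rno-miR-363-3p was tested (-0.17 ± 0.322, edgeR FDR 0.751). Whether the cluster and its paralogs differed in their response was not tested.

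By seed, the AAAGUGC miRNAs held rno-miR-93-5p, rno-miR-17-5p, rno-miR-20a-5p, rno-miR-106b-5p and rno-miR-20b-5p, at 31328 ± 13207, 3003 ± 1296, 2458 ± 1092, 284 ± 128 and 91.1 ± 43.6 CPM in serum (SD, n = 32). The fold changes of the 4 that were tested under insulin ranged from 0.25 to 0.85, and 2 of them were called. Among the miRNAs with the rno-miR-25-3p seed, rno-miR-92b-3p (197 ± 98.8 CPM in serum, log2 fold change -0.44 ± 0.406, edgeR FDR 0.526) and rno-miR-363-3p (464 ± 181 CPM) were not called, and rno-miR-32-5p (64.0 ± 33.6 CPM) was under the filter on low counts.

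**Figure D2:**
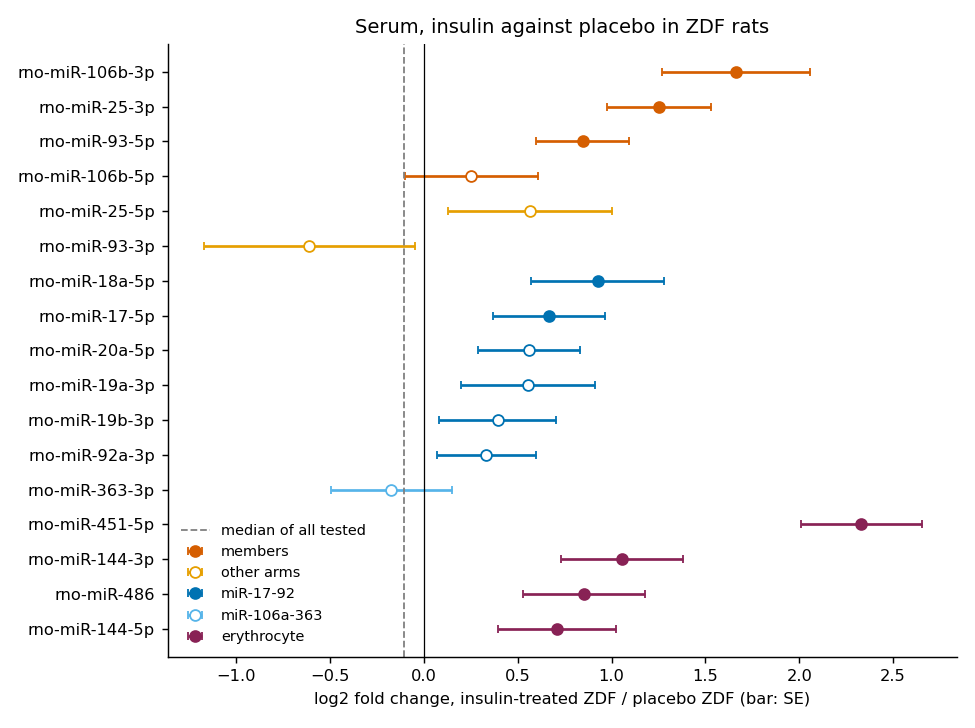
Log2 fold changes in serum between insulin-treated (n = 4) and placebo ZDF rats (n = 5) with their SE, for the fitted miRNAs of 5 lists given in color; filled circles passed an FDR of 0.2, open circles did not, and the dashed line marks the median of all 151 miRNAs tested. Of the members, rno-miR-106b-5p alone has an open circle, and all 4 erythrocyte miRNAs have filled circles.

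Red blood cells carry a few miRNAs in abundance, which serve as their markers in serum. All 4 erythrocyte miRNAs rose under insulin, rno-miR-451-5p by 2.33 ± 0.322, rno-miR-144-3p by 1.05 ± 0.326, rno-miR-486 by 0.85 ± 0.325 and rno-miR-144-5p by 0.71 ± 0.315 on the log2 scale (SE; edgeR FDR 0.000315, 0.0646, 0.120 and 0.165). Their summed level was 238765 to 375131 CPM in the insulin rats and 89211 to 170993 CPM in placebo ZDF rats. None of the 4 was at 0 in either group. Among the lists of other cell types, 0 of 2 platelet and endothelium, 0 of 5 leukocyte, 0 of 3 liver, 0 of 1 striated muscle and 1 of 5 mesenchyme and cartilage miRNAs tested were higher, and 1 leukocyte and 3 liver miRNAs were lower.

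The log2 ratio of rno-miR-451-5p to rno-miR-23a-3p, a common measure of hemolysis, was 3.18 to 3.79 in the insulin rats and -0.49 to 1.41 in placebo ZDF rats, without overlap. With this ratio as a covariate none of the 4 members was called under insulin, at log2 fold changes of -0.07 ± 0.772 for rno-miR-25-3p, 0.25 ± 0.703 for rno-miR-93-5p and 2.49 ± 1.2 for rno-miR-106b-3p (SE; edgeR FDR 0.993, 0.949 and 0.831). Over all miRNAs this fit called 0, in place of 40, so the loss of calls was not particular to the members. Since ratio and treatment separated the same rats, the 2 cannot be told apart in this fit. Against placebo WT rats, whose ratios of -0.51 to 3.3 reached those of the insulin rats, rno-miR-93-5p stayed called with the covariate (1.09 ± 0.407, edgeR FDR 0.0825). Rno-miR-25-3p (0.84 ± 0.428, edgeR FDR 0.264) and rno-miR-106b-3p (0.75 ± 0.586, edgeR FDR 0.436) did not. Over the other settings this comparison called 6 to 121 of all miRNAs. The share in the covariate fit is not given here, so the call of rno-miR-93-5p has no background beside it.

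Within libraries, the log2 ratio of rno-miR-25-3p to rno-miR-451-5p was -0.17, -1.28, -0.95 and -1.05 in insulin rats and 0.22, 0.64, -0.42, 0.90 and 0.32 in placebo ZDF rats, a mean difference of -1.19 (exact permutation p = 0.0238, 0.571 after adjustment over 105 tests). The WT placebo rat with the most rno-miR-451-5p, 157039 CPM, had 35613 CPM of rno-miR-25-3p, within the range of the other WT placebo rats. By contrast, the PTH-treated ZDF rat with the most rno-miR-451-5p of its group, 99397 CPM, had 128147 CPM of rno-miR-25-3p, the highest of all sera.

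**Figure D3:**
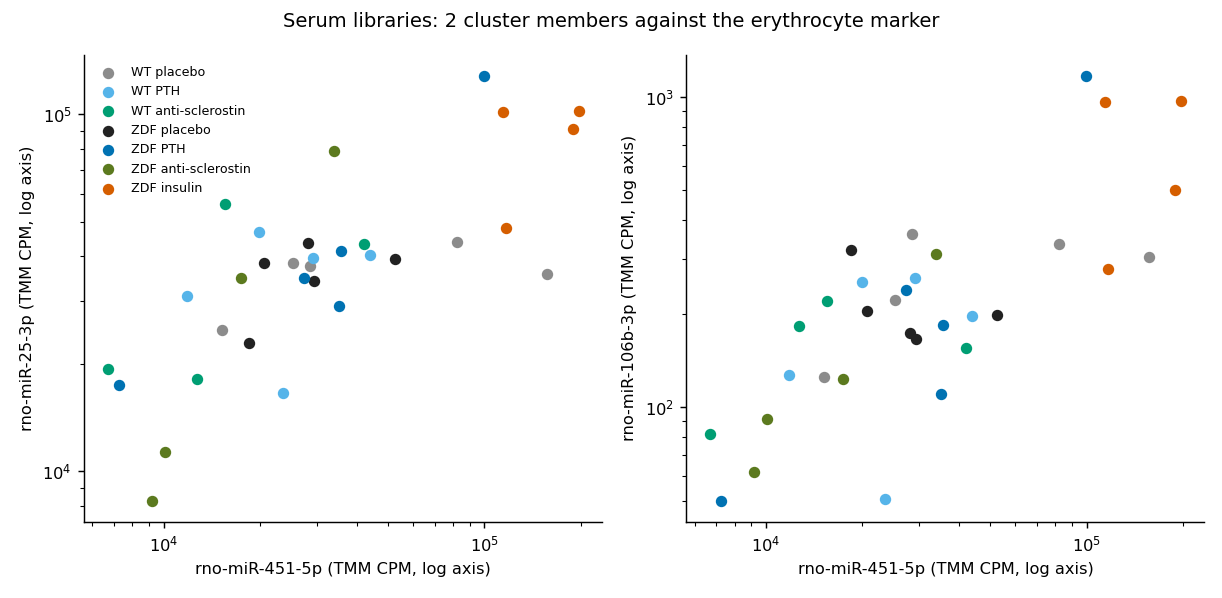
Rno-miR-25-3p (left) and rno-miR-106b-3p (right) against the erythrocyte miRNA rno-miR-451-5p in the 32 sera, in TMM-scaled CPM on log axes, with 1 point per rat colored by group. On the left, the 4 insulin rats and 1 PTH-treated ZDF rat lie at the upper right. There, 1 placebo WT rat with 157039 CPM of rno-miR-451-5p lies below them at 35613 CPM of rno-miR-25-3p. On the right, the lowest insulin rat, at 279 CPM of rno-miR-106b-3p, lies below the highest placebo ZDF rat, at 322 CPM.

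Over the 32 sera rno-miR-106b-5p followed none of the other 3 members. Rno-miR-25-3p and rno-miR-93-5p had a Spearman correlation of 0.778 and rno-miR-25-3p and rno-miR-106b-3p one of 0.759 (0.756 and 0.730 after group means were taken off), rno-miR-93-5p and rno-miR-106b-3p one of 0.470, while rno-miR-106b-5p had -0.0352 with rno-miR-106b-3p, 0.124 with rno-miR-93-5p and 0.00916 with rno-miR-25-3p. With rno-miR-451-5p the values were 0.729 for rno-miR-25-3p, 0.688 for rno-miR-106b-3p, 0.598 for rno-miR-93-5p and 0.253 for rno-miR-106b-5p. Rno-miR-25-3p and rno-miR-92a-3p, which share a seed but not a cluster, had 0.205. These are descriptions, since the points share libraries, scaling and depth.

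The miRNAs most alike to each member were chosen by the 3 highest Spearman correlations among those of 100 CPM or more on average. In serum, rno-miR-25-3p was most like rno-miR-505-3p (0.812), rno-miR-486 (0.805) and rno-miR-93-5p (0.778), and rno-miR-106b-3p most like rno-miR-505-3p (0.898), rno-miR-25-3p (0.759) and rno-miR-30e-3p (0.708). Rno-miR-93-5p was most like rno-miR-15a-5p (0.798), rno-miR-25-3p (0.778) and rno-miR-486 (0.668). Rno-miR-106b-5p was most like rno-miR-15b-5p (0.650), rno-miR-500-3p (0.571) and rno-miR-15b-3p (0.555).

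ZDF and WT rats on placebo, the comparison of diabetic with non-diabetic rats on the same diet and with the same defect, gave no member past the threshold in serum. There, rno-miR-25-3p was at 35681 ± 7888 CPM in ZDF rats and 36061 ± 6914 CPM in WT rats and rno-miR-93-5p at 31237 ± 4946 and 26070.1 ± 4283 CPM (SD, n = 5 each). Rno-miR-106b-5p was at 268 ± 79.0 and 314 ± 188 CPM and rno-miR-106b-3p at 212 ± 63.1 and 269 ± 96.0 CPM. All 4 members overlapped between the genotypes. The log2 fold changes ran from -0.45 ± 0.387 for rno-miR-106b-3p over -0.30 ± 0.424 for rno-miR-106b-5p and -0.10 ± 0.284 for rno-miR-25-3p to 0.19 ± 0.255 for rno-miR-93-5p (SE; edgeR FDR 0.688 to 0.925), and 0 of the 4 were called, 0 at an unadjusted p under 0.05 and 0 with DESeq2, beside 6.10% of 164 miRNAs. With library totals, which moved the median of all miRNAs by -0.78 and called 107 miRNAs (101 lower) in place of 10 (3 lower), 3 members were called lower, rno-miR-106b-3p at -1.12, rno-miR-106b-5p at -1.05 and rno-miR-25-3p at -0.83.

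PTH and the sclerostin antibody left no member past the threshold in serum. In ZDF rats, 0 of 3 members tested were called with the antibody (5.38% of 130 miRNAs called) and 0 of 4 with PTH (0% of 154, with 4 miRNAs at an unadjusted p under 0.05 and 0 with DESeq2). In WT rats, 0 of 2 were called with the antibody (3.70% of 108) and 0 of 4 with PTH (0% of 170, with 2 at an unadjusted p under 0.05 and 0 with DESeq2). Between genotypes, 0 of 4 were called under PTH (0% of 158, with 5 at an unadjusted p under 0.05 and 0 with DESeq2) and 0 of 3 under the antibody (0.855% of 117). In each of these 6 comparisons no member had an unadjusted p under 0.05 or was called by DESeq2. Members not tested were arms of miR-106b that independent filtering on the mean level had removed. The interaction of genotype with treatment, which asks whether a drug acted differently in ZDF rats, called 0 of 4 members for PTH (0% of 182) and 0 of 4 for the antibody (0% of 189), with 8 and 4 miRNAs at an unadjusted p under 0.05 and 0 with DESeq2.

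With the antibody in ZDF rats, rno-miR-25-3p was at 79002, 11326, 8268 and 34866 CPM, and in WT rats at 56252, 18118, 19334 and 43304 CPM. PTH-treated ZDF rats were at 34703, 41496, 128147, 29000.3 and 17498 CPM, where 1 rat stood above every other serum. The same rat had 1166 CPM of rno-miR-106b-3p, from 99 reads, with 49.9 to 239 CPM in the other 4, and 99397 CPM of rno-miR-451-5p, with 7237 to 35795 CPM in the other 4. Its rno-miR-93-5p, 44090.2 CPM, was the highest of the group too, and its rno-miR-106b-5p, 247 CPM, lay within the range of the other 4.

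By group, the serum order of rno-miR-93-5p ran from insulin-treated ZDF rats over placebo ZDF, PTH ZDF, antibody WT, placebo WT and PTH WT to antibody ZDF rats, with geometric means from 55545 to 23901 CPM. The first step was the only one between neighbors without overlap (exact permutation p = 0.00794), and the other steps were 0.17 or less on the log2 scale (exact permutation p 0.468 to 0.976). For rno-miR-25-3p insulin-treated ZDF rats came first at 82118 CPM and PTH-treated ZDF rats next at 39291 CPM, a step that overlapped (exact permutation p = 0.111), followed by placebo WT, placebo ZDF, PTH WT, antibody WT and, at 22537 CPM, antibody ZDF rats. Rno-miR-106b-3p ran from 601 CPM under insulin over placebo WT at 252 CPM (exact permutation p = 0.0476) to 122 CPM in antibody ZDF rats. For rno-miR-106b-5p no pair of neighbors was apart, from 332 CPM in antibody ZDF to 202 CPM in PTH ZDF rats.

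In bone, rno-miR-93-5p was called higher in placebo ZDF rats than in placebo WT rats in the main fit, by a narrow margin. Its levels were 7601, 3134, 4907 and 7377 CPM in ZDF and 3392, 2937, 4040.1 and 2418 CPM in WT bones, and 1 ZDF bone lay within the WT range. An exact permutation test of these levels gave p = 0.0857 (0.516 adjusted over 52 tests). The log2 fold change was 0.82 ± 0.335 (SE; edgeR FDR 0.197). It was the 1 member called of 2 tested, where 17.0% of 135 miRNAs were called, and it was not called under any of 7 alternatives, among them DESeq2 (0.79, FDR 0.240) and library totals (0.39, edgeR FDR 0.976), or in 6 of the 8 fits without 1 bone. It stayed called without the second ZDF bone (1.05, edgeR FDR 0.0880) and without the first WT bone (0.86, edgeR FDR 0.136). Rno-miR-25-3p had 0.42 ± 0.323 (edgeR FDR 0.470). The arms of miR-106b, removed by independent filtering, had values of opposite sign, with 0.68 ± 0.365 for rno-miR-106b-3p and -0.82 ± 0.463 for rno-miR-106b-5p and no FDR.

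The same ZDF bones were high for 3 members and low for rno-miR-106b-5p. Rno-miR-25-3p was at 7529, 4166, 3950.2 and 8845 CPM, rno-miR-106b-3p at 362, 185, 144 and 394 CPM and rno-miR-106b-5p at 15.3, 60.6, 57.6 and 28.1 CPM, the last from 3, 67, 8 and 6 reads, with the rats in the same order as above. The first and the last bone had the highest levels of rno-miR-25-3p, rno-miR-93-5p and rno-miR-106b-3p and the lowest of rno-miR-106b-5p. WT placebo bones had 5347, 4035, 4571 and 3939 CPM of rno-miR-25-3p, 157, 150.0, 196 and 159 CPM of rno-miR-106b-3p and 89.9, 97.6, 48.1 and 56.7 CPM of rno-miR-106b-5p. Among the markers, 5 of 5 mesenchyme and cartilage miRNAs and 2 of 5 leukocyte miRNAs tested were lower in the ZDF bones and 2 of 4 striated muscle miRNAs higher, with summed muscle levels of 79058 to 430333 CPM in ZDF and 54905 to 404389 CPM in WT bones. The part of tissue make-up in the level of rno-miR-93-5p was not tested.

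PTH moved no member past the threshold in bone. Rno-miR-25-3p was at 6486, 7595, 5619.9 and 5591 CPM in PTH-treated WT bones and did not overlap with placebo WT bones, with an exact permutation p of 0.0286, the smallest that 4 against 4 allow (0.248 adjusted over 52 tests). Without TMM the groups overlapped (exact permutation p = 0.0571, 0.495 adjusted). The share of all miRNAs that separated in this comparison was not counted. In the fit rno-miR-25-3p had a log2 fold change of 0.59 ± 0.351 (SE; edgeR FDR 0.407), which turned to -0.77 with library totals, where the median of all miRNAs moved by -1.16 and the 30 calls (10 higher, 20 lower) became 70 lower ones. In WT bones 0 of 3 members tested were called (16.8% of 179 miRNAs) and in ZDF bones 0 of 3 (0% of 215, with 13 at an unadjusted p under 0.05 and 1 with DESeq2). Between genotypes under PTH 0 of 2 were called (7.89% of 114), and the interaction called 0 of 2 (1.35% of 74). In these 4 fits 0 members had an unadjusted p under 0.05 and DESeq2 called 0.

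Rno-miR-93-5p was uneven among the PTH-treated bones, at 1816, 890.4, 4384 and 4645 CPM in WT bones, the second from 34 reads, and at 3347, 8161, 3769.6 and 4072 CPM in ZDF bones. In the order of bone groups, ZDF placebo and ZDF PTH came first and second for rno-miR-93-5p (geometric means 5419 and 4525 CPM) and for rno-miR-106b-3p (248 and 244 CPM), and last for rno-miR-106b-5p (35.2 and 33.0 CPM). For rno-miR-25-3p both PTH groups came first, ZDF at 7509 CPM and WT at 6272 CPM. No neighbors in these orders were apart (exact permutation p 0.114 to 1).

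**Figure D4:**
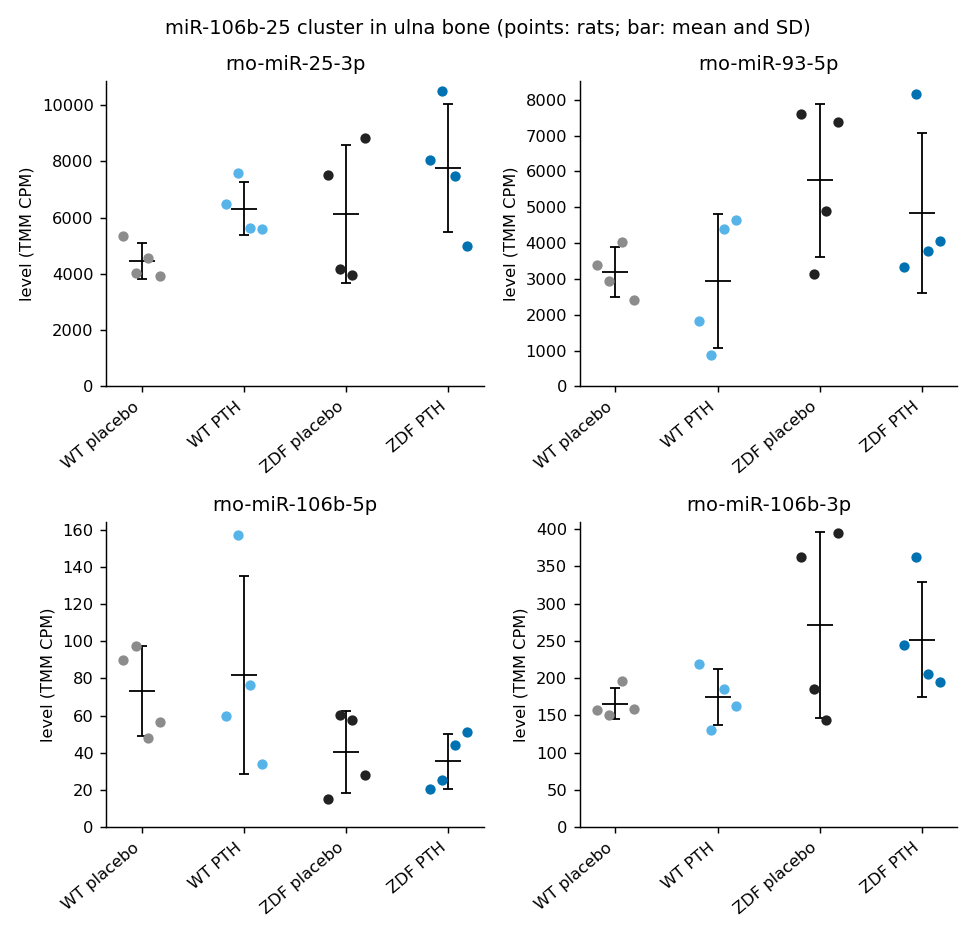
Levels of the 4 members in ulna bone, in TMM-scaled CPM on linear axes, by group; each point is 1 rat and the black bar is the mean with the SD (n = 4). Rno-miR-93-5p is at 3134 to 7601 CPM in placebo ZDF and 2418 to 4040.1 CPM in placebo WT bones, and rno-miR-106b-5p is lowest in the 2 ZDF groups.

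Over the 16 bones rno-miR-106b-5p ran opposite to its own partner arm, with a Spearman correlation of -0.791 with rno-miR-106b-3p (-0.771 after group means were taken off), -0.641 with rno-miR-93-5p and -0.482 with rno-miR-25-3p, while rno-miR-106b-3p and rno-miR-25-3p had 0.653. Its most alike miRNAs there were rno-miR-29b-3p (0.844), rno-miR-130a-3p (0.782) and rno-miR-27a-3p (0.744). Rno-miR-25-3p was most like rno-miR-100-5p (0.83), rno-miR-1843a-5p (0.83) and rno-miR-532-5p (0.809), rno-miR-106b-3p most like rno-miR-411-5p (0.83), rno-miR-26a-5p (0.732) and rno-miR-99b-3p (0.726), and rno-miR-93-5p most like rno-miR-218a-5p (0.735), rno-miR-196b-5p (0.729) and rno-miR-191a-5p (0.715). No miRNA stood in the lists of both tissues for the same member.

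The 2 arms of miR-106b were weighed against each other within libraries. The log2 ratio of rno-miR-106b-5p to rno-miR-106b-3p was -4.35, -1.61, -1.27 and -3.70 in placebo ZDF bones and 0.40, 0.88, 0.16, 0.88 and -0.69 in placebo ZDF sera. It was lower in every bone than in any serum, with a mean difference of -3.06 (exact permutation p = 0.00794, the smallest possible, and 0.278 adjusted over 105 tests). In WT rats the ratio was -0.79, -0.61, -2.01 and -1.47 in bone and -0.28, 1.45, -1.11, -0.46 and 1.02 in serum, with overlap and a mean difference of -1.35 (exact permutation p = 0.0714). Between genotypes in placebo bone the ratio differed by -1.51, ZDF minus WT (exact permutation p = 0.143), a difference within the spread of the bones.

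**Figure D5:**
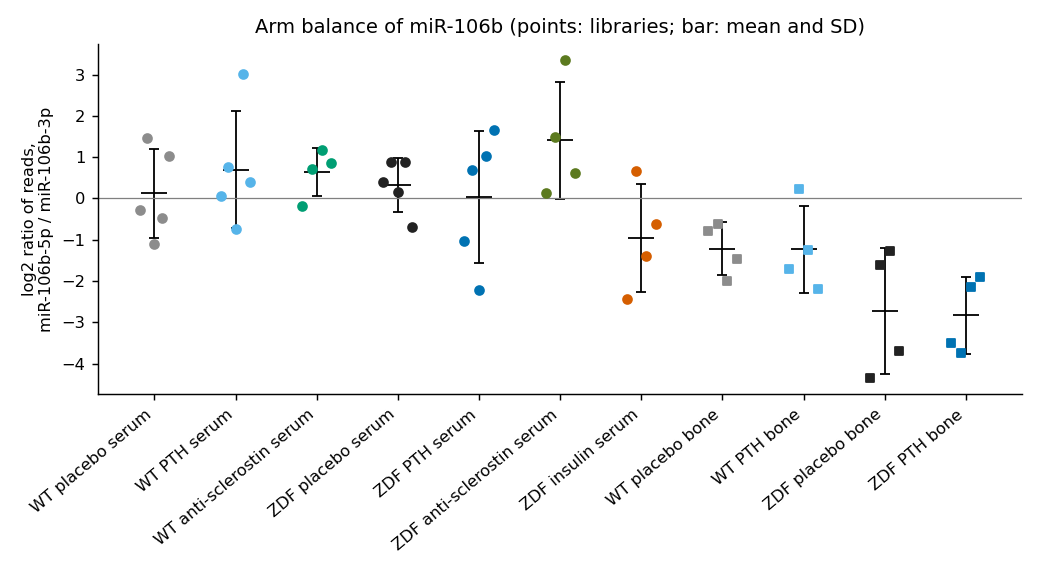
Log2 ratio of reads of rno-miR-106b-5p to rno-miR-106b-3p in each library, with 0.5 added to both counts; circles are sera, squares are bones, and the black bar is the mean with the SD. All 4 bone groups have means of -1.22 or lower, and the means of the serum groups run from -0.95 under insulin to 1.40 in antibody-treated ZDF rats.

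As a share of miRNA reads the members were lower in bone than in serum. Together they took 7.26% ± 2.85 of the serum reads (2.47% to 14.1%, n = 32) and 1.07% ± 0.358 of the bone reads (0.536% to 1.71%, n = 16). In placebo WT rats all 4 members were called lower in bone, with log2 fold changes of -3.29 ± 0.372 for rno-miR-93-5p, -3.27 ± 0.393 for rno-miR-25-3p, -2.36 ± 0.533 for rno-miR-106b-5p and -0.99 ± 0.432 for rno-miR-106b-3p (SE; edgeR FDR 3.82e-06, 5.46e-06, 0.00102 and 0.0530), where 80.6% of 222 miRNAs were called. In placebo ZDF rats 3 were called lower, rno-miR-106b-5p at -2.67 ± 0.459, rno-miR-25-3p at -2.54 ± 0.356 and rno-miR-93-5p at -2.42 ± 0.343 (edgeR FDR 6.84e-05, 1.01e-05 and 1.11e-05), with 86.1% of 202 called, and rno-miR-106b-3p had 0.39 ± 0.390 (edgeR FDR 0.378).

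These directions are for levels within the miRNA reads, and not all of them held beyond that scaling. Scaled to all reads of a library the median of all miRNAs moved by 2.46 in WT and 2.89 in ZDF rats, the split of calls went from 93 higher and 86 lower to 170 and 22 in WT rats, and from 93 and 81 to 155 and 14 in ZDF rats. Of the members, rno-miR-106b-3p was then higher in bone, by 1.70 in WT and 3.13 in ZDF rats (edgeR FDR 0.00564 and 5.96e-06), and the other 3 were between -0.74 and 0.43, with rno-miR-93-5p and rno-miR-25-3p still called lower in WT rats (edgeR FDR 0.174 and 0.194). Measured from the median, rno-miR-25-3p and rno-miR-93-5p stood between -3.39 and -2.64 in both genotypes and under both scalings, and rno-miR-106b-3p between -1.09 and 0.17. Bone and serum were extracted in different ways, so tissue and extraction cannot be told apart, and in whole tissue a lower level of RNA per cell and a smaller number of cells cannot be told apart either.

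The paralogs and the erythrocyte miRNAs were low in bone too. Of the miR-17-92 arms 7 of 8 tested were lower in bone in WT rats (median -3.16, beside 0.10 over all tested) and 6 of 6 in ZDF rats (median -3.01, beside 0.21), and 3 of 4 erythrocyte miRNAs were lower in each genotype. Summed, the erythrocyte miRNAs were at 75940.0 to 237554 CPM in placebo WT sera and at 9414 to 13821 CPM in placebo WT bones, levels scaled separately in each tissue. Within libraries, the log2 ratio of rno-miR-25-3p to rno-miR-92a-3p was 0.78, -0.18, 0.55 and 0.63 in placebo ZDF bones, above every placebo ZDF serum and higher by 1.55 (exact permutation p = 0.00794, 0.278 adjusted over 105 tests). In placebo WT rats this ratio overlapped between bone and serum, with a mean difference of 0.85 (exact permutation p = 0.198, 0.618 adjusted). The muscle markers of the bones, with 4 of 4 higher than in serum in both genotypes, were measured beside the mesenchyme markers, of which 4 of 5 were higher in both. The part of muscle in these levels was not tested.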

How the data were processed

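Small RNA of 32 rat sera and 16 ulna bones had been extracted (miRNeasy), made into RealSeq-Biofluids libraries and sequenced by the authors. Per the study's methods, reads were trimmed with cutadapt, kept from 17 nt, and mapped with bowtie and miRDeep2 to Rnor 6.0 with 2 mismatches allowed and, next, to miRBase entries for rat with 1. The deposited tables give raw read counts for 763 miRNAs and spike-in controls, and RPM values that the authors computed per library total, from which library totals were taken; a column scaled to the miRNA reads was not used. Reads of near-identical miRNAs may be shared.

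Counts were normalized by TMM and tested with edgeR 4.0.16 (limma 3.58.1, R 4.3.3; filterByExpr with a minimum count of 10, quasi-likelihood test, only the groups compared), followed by independent filtering on the mean level and Benjamini-Hochberg adjustment, as the study describes; a miRNA removed by that filter has no FDR. There were 15 comparisons of 2 groups and 3 interactions. Levels (log2 of CPM + 1) and ratios (reads + 0.5) were compared with exact two-sided permutation tests on the size of the difference in means. Alternatives were other filters, size factors of DESeq2 (RLE), library totals, extraction controls, DESeq2 1.42.0, all groups of a tissue in 1 fit, an FDR of 0.05, a hemolysis covariate, levels without TMM, a ratio pseudocount of 1 and leaving out each library. The fits were tested on simulated data.

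Groups came from the labels, which give no replicate number and do not tie bones to sera; the methods say that the bones came from the rats of the sera except for 2 bones of PTH-treated ZDF rats, so bone and serum were compared as independent samples. Counts of the 82 pairs of libraries within a group all differed by more than sampling noise (smallest chi-square 12.7 per degree of freedom). The number of reads sets the precision, and intervals cover counting error only. Members and lists were chosen with earlier results of these data known. Other miRNAs named are the remaining arms, the paralogous clusters, those sharing a seed, the 3 most alike per member and tissue, and cell type markers. Sequences are from RefSeq (GRCr8). The genome interval of Mcm7 in that build was used only to place the mature arms.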

Additional observations from a re-analysis of the deposited data

Results flagged for a closer look

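In 44 sets of values, the 4 members in 11 groups, 4 values, from 3 libraries, stood far from the rest of their group by Dixon's test at 95%, which chance does in about 1 of 20 groups. Rno-miR-25-3p was at 128147 CPM in 1 PTH-treated ZDF serum, with 17498 to 41496 CPM in the other 4, and rno-miR-106b-3p was at 1166 CPM in the same serum, with 49.9 to 239 CPM in the others. That serum also had 99397 CPM of the erythrocyte miRNA rno-miR-451-5p, with 7237 to 35795 CPM in the other 4. Rno-miR-106b-3p was at 322 CPM, from 18 reads, in 1 placebo ZDF serum, with 166 to 204 CPM in the other 4, and this serum had the lowest rno-miR-451-5p of the group, 18428 CPM. Rno-miR-93-5p was at 8161 CPM in 1 PTH-treated ZDF bone, with 3347 to 4072 CPM in the other 3. No member passed the test of an interaction of genotype and treatment.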

How the results depend on the processing

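No paired analysis was possible because the labels give no replicate numbers that groups share. Under insulin in ZDF serum, 3 members were called in the fit as reported and in every fit without 1 library (range 3 to 3). With the hemolysis covariate 0 members and 0 miRNAs in all were called, and the fold change of rno-miR-25-3p was -0.071. That of rno-miR-106b-5p was -0.049 with library totals. Against placebo WT rats 3 were called, 2 to 3 without 1 library, 1 with library totals (rno-miR-106b-5p, lower and not among the 3, while rno-miR-93-5p, not called, was at -0.058), 0 with the extraction controls and 1 with the covariate (rno-miR-93-5p). In placebo serum ZDF against WT rats, 0 became 3 with library totals, rno-miR-93-5p was -0.60 with library totals and -0.79 with the controls, and rno-miR-25-3p was 0.077 with the covariate; without 1 library the latter ranged from -0.17 to 0.058 and rno-miR-106b-5p from -0.42 to 0.22. With the extraction controls, PTH in ZDF serum called 3 members, the antibody in WT serum 1 and the interaction with PTH in serum 2, in place of 0, where over all miRNAs 88 were called higher and 0 lower, 0 higher and 27 lower, and 9 higher and 0 lower, and the median fold change moved by 1.37, -0.75 and 1.89. The antibody in ZDF serum called 0 to 1 without 1 library (1 without the first antibody-treated rat). In placebo bone, ZDF against WT, 1 member was called, 0 with all miRNAs of 1 read or more, without independent filtering, with RLE, library totals, DESeq2, all groups in 1 fit or an FDR of 0.05, and 0 to 2 without 1 library. PTH in WT bone gave 1 with library totals in place of 0, rno-miR-106b-5p (edgeR FDR 0.195), while rno-miR-25-3p, not called, was at -0.77. Bone against serum in placebo ZDF rats gave 1 with library totals in place of 3, and 3 to 4 without 1 library; with library totals rno-miR-106b-5p was 0.27 in WT and 0.43 in ZDF rats, rno-miR-106b-3p 1.70 in WT, and rno-miR-93-5p and rno-miR-25-3p 0.25 and 0.25 in ZDF rats. The cause of these changes was not tested. Of 146 counts of members under other settings 129 stayed within 1.5 times, as did 126 of 134 without 1 library; of 182 single fold changes under other settings 12 changed sign. The 5 exact tests of levels with an adjusted p under 0.2 had one of 0.248 without TMM. Of 54 ratio results without 1 library 32 stayed the same and 22 became weaker, while 6 of 6 stayed the same under other settings.

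Counts of all miRNAs called, as reported and as a range over the other settings, were for placebo serum ZDF against WT 10 and 8 to 107, PTH serum 0 and 0 to 1, antibody serum 1 and 0 to 12; for ZDF serum insulin 40 and 0 to 49, antibody 7 and 1 to 24, PTH 0 and 0 to 88; for WT serum antibody 4 and 0 to 27, PTH 0 and 0 to 3; for insulin against placebo WT 30 and 6 to 121; for placebo bone 23 and 0 to 34, PTH bone 9 and 5 to 36; for PTH in ZDF bone 0 and 0 to 1, in WT bone 30 and 3 to 70; for bone against serum 179 and 148 to 330 in WT, 174 and 150 to 348 in ZDF rats; and for the interactions 0 and 0 to 10 (antibody), 0 and 0 to 9 (PTH, serum) and 1 and 0 to 8 (PTH, bone). Without 1 library the count ranged from 18 to 59 for insulin in ZDF serum, 0 to 91 for placebo bone and 3 to 90 for PTH in WT bone. Low reads limit the arms of miR-106b most.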
